A study of Rattus norvegicus with 6 samples.

Results

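The rat zinc finger genes whose symbol is Zfp followed by a number alone were followed in myocardial tissue after ischemia/reperfusion (I/R). The deposited table holds 228 such symbols once Zfp36 is set aside, and 131 of them had a mean over the 6 libraries of at least 0.5 FPKM (fragments counted on a gene, divided by its length and by the size of the library, the unit of the table). These 131 genes, chosen by symbol and by mean FPKM, are called the Zfp genes here and are 131 of the 10942 genes tested. The other 97 symbols lay under 0.5 FPKM. All rats were male and WT. In the I/R group the left anterior descending coronary artery was tied over a tube for 30 min and then reopened for 6 h before the heart was taken. For the sham group the titles carry those times too, and its surgery is described only as Sham. The paper describes PBS given as vehicle into the tail vein of both sham and reperfusion rats. The titles do not say whether the rats sequenced here received it. Each group has 3 libraries of total RNA. Strain, age and the part of the heart that was sequenced are not given in the labels, which number the samples without stating that each is a separate rat, so the p-values measure the spread between these samples and part of that spread may be technical.

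Most of the proteins encoded by Zfp genes carry C2H2 zinc fingers, small folds held by a zinc ion that are strung in tandem and read DNA sequence. Many also carry a KRAB domain, which recruits the corepressor Trim28 and, through it, the histone methyltransferase Setdb1 and heterochromatin proteins, and this pathway is best known for silencing retroelements. A minority of Zfp proteins bind RNA, ribosomes or ubiquitin targets in place of DNA. Zinc finger genes often lie side by side in clusters that arose by tandem duplication.

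The libraries differed in ways that went with the groups. Mitochondrially encoded mRNAs took 80.1% to 86.2% of the summed FPKM in sham and 61.8% to 71.5% in I/R. The summed FPKM of 8 cardiomyocyte markers was 3559 to 12031 in sham and 23513 to 34000 in I/R, with none of the 8 at 0. Of these 8, 6 were called higher, as were 25.5% of all genes tested. The 7 neutrophil and monocyte markers summed to 22.1 to 30.0 FPKM in sham and 38.7 to 89.5 in I/R. Of these 7, 5 were tested, of which 3 were called higher and 1 had a log2 fold change below 0. Among the 7 fibroblast markers, 2 were called higher and 1 lay below 0. The sums of 7 fibroblast markers (420.1 to 580.9 in sham, 605.0 to 669.3 in I/R) did not overlap, while those of 7 endothelial markers (162.2 to 231.0 and 204.5 to 238.1), 6 pan-leukocyte markers (32.7 to 48.0 and 42.6 to 45.3), 6 smooth muscle and pericyte markers (85.2 to 276.7 and 140.8 to 334.8) and 2 red blood cell markers (1138 to 1237 and 619.0 to 1780) did. No marker found in the table was at 0 in any library. Relative to sham 1, depth was 1.18 and 1.14 in the other sham libraries and 0.873 to 0.935 in I/R. The part of these differences in the results on the Zfp genes was not tested, and fewer cells of a type and less RNA per cell cannot be told apart in tissue RNA.

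The Zfp genes were lower after I/R more often than they were higher. Of the 131, 26 passed an adjusted p of 0.05 as lower in I/R and 2 passed as higher, and 103 were not called (limma on log2(FPKM + 0.1), Benjamini-Hochberg adjustment over all 10942 genes). The 26 are 19.8% of the Zfp genes, where 7.36% of all genes tested were called lower. The 2 are 1.53% of the Zfp genes, where 25.5% of all genes tested were called higher. The median log2 fold change was -0.35 over the Zfp genes and 0.29 over all genes tested, and 91 Zfp genes lay below 0 against 40 above. In 49 Zfp genes, or 37.4%, all 3 I/R libraries were under all 3 sham libraries, which held for 13.0% of all genes tested. In 10 Zfp genes, or 7.63%, all 3 I/R libraries were above, against 37.2% of all genes tested. Of the 49, 13 were among 17 genes that passed the limit of 0.5 FPKM through sham alone, so these are not independent of that limit. In the 113 Zfp genes at 0.5 FPKM or more in both groups, the I/R libraries were all under sham in 36 (31.9%) and all above in 9 (7.96%). The count of 26 fell to 12 without sham 2 and to 14 without sham 3, whereas the median stayed between -0.40 and -0.21 with any 1 library left out.

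**Figure D1:**
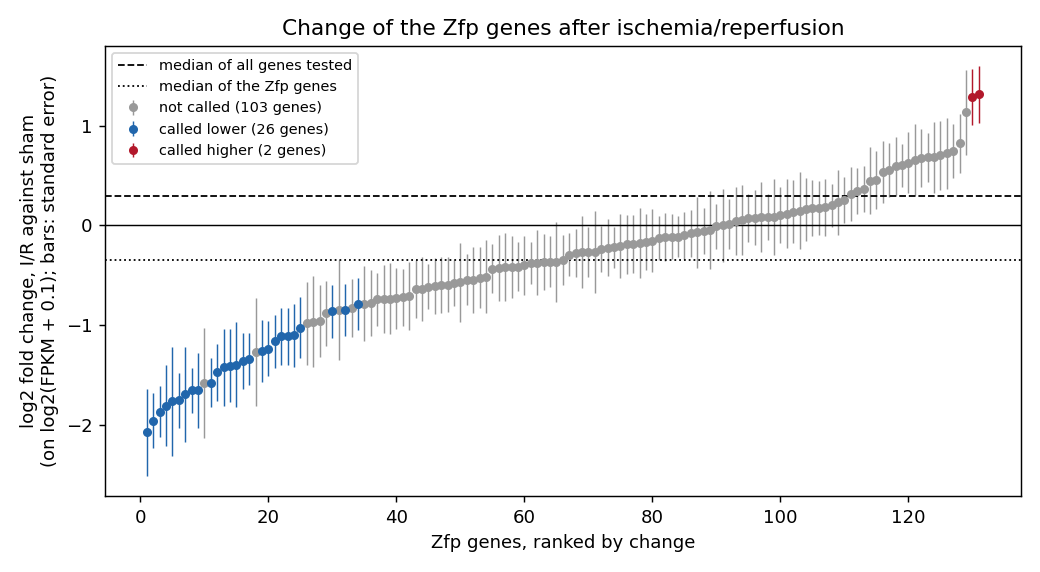
Log2 fold change in I/R against sham on log2(FPKM + 0.1) for each of the 131 Zfp genes, ranked from lowest to highest on the x axis. Points are fitted values, bars the standard error from limma, and the dashed and dotted lines the medians of all genes tested (0.29) and of the Zfp genes (-0.35); 26 genes were called lower and 2 higher.

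The Zfp genes were also set beside other genes of like expression. The means of the Zfp genes ran from 0.507 to 8.80 FPKM, and 8439 other genes lay in that range. Of these, 8.43% were called lower and 18.2% higher, and their median log2 fold change was 0.17. Among genes with a mean of 0.5 to 1 FPKM, 8 of 52 Zfp genes were called lower, with a median of -0.52, against 9.45% of 1778 other genes with a median of -0.06. At 1 to 2 FPKM, 9 of 36 Zfp genes were called lower with a median of -0.33, against 10.4% of 2218 other genes with a median of 0.05. In both sets of genes the median was higher at higher expression, and the Zfp median lay under that of the others in each class. At 2 to 5 FPKM, 9 of 38 Zfp genes were called lower and 1 higher with a median of -0.17, against 7.84% lower of 3036 other genes with a median of 0.25. Above that level, up to 8.80 FPKM, there were 5 Zfp genes, of which limma called none lower (0 also at an unadjusted p of 0.05, and 0 with voom on recovered fragments) and 1 higher. Their median was 0.25, against 0.42 in 1445 other genes, of which 5.40% were called lower. After quantile normalization, or rescaling over the genes not encoded in mitochondria, 1 of the 5 was called lower. From the lowest class to the highest, 8.10%, 11.8%, 22.2% and 31.8% of the other genes were called higher, against 0, 0, 1 and 1 Zfp genes. The rule on mean FPKM itself admitted 17 genes through sham alone, since their I/R mean was under 0.5, and 7 of those 17 were called lower. The 7 are Zfp54, Zfp455, Zfp347, Zfp202, Zfp875, Zfp51 and Zfp318, so their calls as lower are not independent of the rule. In the 113 Zfp genes at 0.5 FPKM or more in both groups, 19 (16.8%) were called lower and 2 (1.77%) higher, with a median of -0.22. That limit was not applied to the other genes, so no share of a like set stands beside these counts.

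**Figure D2:**
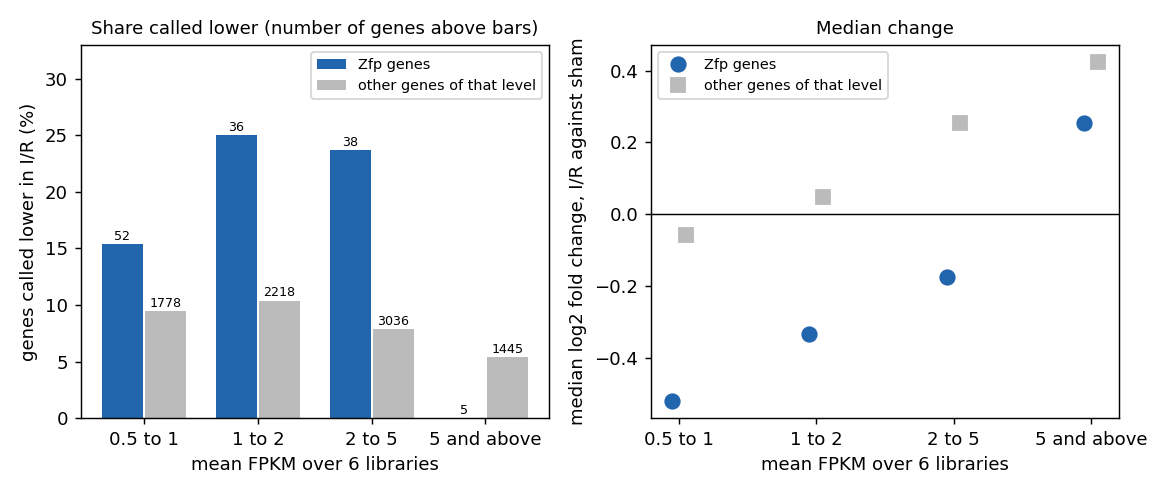
Zfp genes (blue) and all other genes of the same mean expression (grey) in 4 classes of mean FPKM on the x axis, the highest of which ends at 8.80 FPKM for both. The left panel gives the percentage called lower in I/R, with the number of genes above each bar, and the right panel the median log2 fold change; the Zfp medians run from -0.52 to 0.25 and the others from -0.06 to 0.42.

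The Zfp genes ranked lower within the I/R libraries. Within each library the tested genes were ranked by FPKM, and the median percentile of the Zfp genes was 31.7, 32.1 and 32.0 in the 3 sham libraries and 18.2, 20.8 and 21.4 in the 3 I/R libraries. The groups did not overlap, and the sham libraries lay within 1 percentile of each other. The ranked Zfp genes include the 17 that passed the limit of 0.5 FPKM through sham alone, so the lower rank in I/R is not independent of that limit. The median FPKM of the Zfp genes was 1.37, 1.76 and 1.44 in sham and 1.03, 1.06 and 1.07 in I/R. The other genes in the same range of means had medians of 1.78, 2.22 and 1.82 FPKM in sham and 2.39, 2.07 and 2.04 in I/R, which overlap. Whole numbers of fragments could be recovered from the FPKM values of 129 Zfp genes, and, not corrected for depth, they summed to 37638, 62228 and 47414 in sham and to 31946, 32616 and 29474 in I/R, while the summed FPKM of all 131 genes overlapped, at 228.4, 300.3 and 243.6 in sham and 237.1, 213.9 and 214.5 in I/R. These genes rested on 4 to 2774 fragments in a library, and 5 of them had fewer than 20 in some library. Sham 1 was the lowest sham library for 75 of the 131 genes and sham 2 the highest for 87.

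The 26 genes called lower had 1.78 to 6.05 times more FPKM in sham than in I/R, with a median of 2.97 times, and in all 26 every I/R library was under every sham library. Of these 26, 7 passed the limit of 0.5 FPKM through sham alone. The largest change was in Zfp54, at 0.680, 1.63 and 2.26 FPKM in sham and 0.201, 0.310 and 0.244 in I/R (log2 fold change -2.08 ± 0.44, SE, adjusted p = 0.00794). With an I/R mean of 0.252 FPKM, this gene passed the limit of 0.5 FPKM through sham alone. Sham 1 was the lowest of the sham libraries and still lay above the 3 I/R libraries. Zfp17, among the better measured of these genes with 195 to 1772 fragments a library, was at 3.21, 6.03 and 4.51 FPKM in sham and 0.898, 1.02 and 1.32 in I/R (-1.96 ± 0.28, adjusted p = 0.00291). Zfp142, a long C2H2 protein, was at 4.37, 5.96 and 3.18 FPKM in sham and 0.975, 1.47 and 1.27 in I/R (-1.76 ± 0.28, adjusted p = 0.0035). In both genes the lowest sham library lay well above the highest I/R library.

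Zfp386 was at 3.33, 7.82 and 6.89 FPKM in sham and 0.824, 2.09 and 2.08 in I/R (-1.81 ± 0.41, adjusted p = 0.0101). Libraries 1 of both groups were the low ones for this gene. Zfp958, whose 2 rows in the table were summed, was at 3.02, 5.79 and 3.95 FPKM in sham and 0.652, 1.53 and 1.83 in I/R (-1.66 ± 0.38, adjusted p = 0.0103), and its relative Zfp958l1, which the rule on symbols leaves out, was also called lower (-1.94, adjusted p = 0.006). Closely related zinc finger genes can share fragments, so single members of such pairs are uncertain. Zfp455 (-1.77 ± 0.55, adjusted p = 0.0338) and Zfp347 (-1.70 ± 0.48, adjusted p = 0.0231) were lower from sham means of 0.900 and 0.949 FPKM, and Zfp455 rested on as few as 4 fragments in I/R 1. Zfp395, at 0.405, 1.28 and 0.871 FPKM in sham and 0.259, 0.357 and 0.0541 in I/R, had a log2 fold change of -1.58 ± 0.55 and was not called (adjusted p = 0.0504, and 0.0309 with the replicate number as a block).

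**Figure D3:**
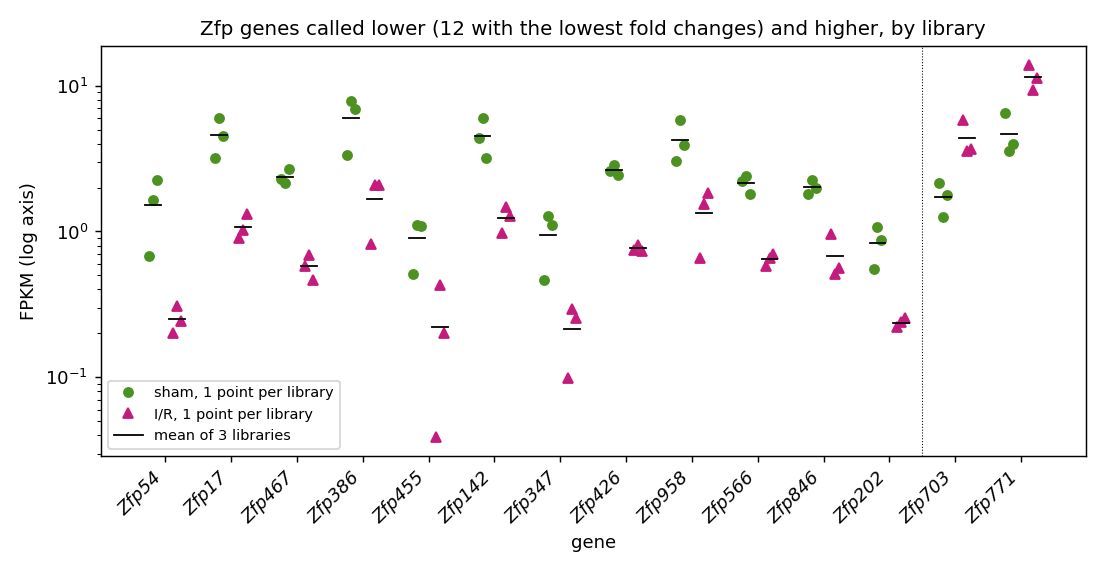
FPKM on a log axis in the 3 sham (circles) and 3 I/R (triangles) libraries for the 12 Zfp genes called lower with the lowest log2 fold changes, left of the dotted line, and the 2 called higher, right of it. Short lines are group means, and in each of the 14 genes the groups do not overlap. Of the genes shown, Zfp54, Zfp455, Zfp347 and Zfp202 passed the limit of 0.5 FPKM through sham alone.

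Further genes called lower have a role in another tissue or stood out by their values. Zfp566 stood out for its even libraries, at 2.22, 2.38 and 1.82 FPKM in sham and 0.580, 0.661 and 0.701 in I/R (-1.58 ± 0.25, adjusted p = 0.00349). Zfp202, a SCAN and KRAB repressor linked to lipid genes, was at 0.549, 1.07 and 0.877 FPKM in sham and 0.220, 0.239 and 0.253 in I/R (-1.43 ± 0.39, adjusted p = 0.020). Zfp318, which in lymphocytes governs the choice between IgM and IgD transcripts, was at 1.22, 1.41 and 1.18 FPKM in sham and 0.531, 0.493 and 0.421 in I/R (-1.24 ± 0.28, adjusted p = 0.0102). Zfp161, listed in RefSeq as Zbtb14, a BTB-domain repressor of Myc, was at 1.02, 1.24 and 1.35 FPKM in sham and 0.498, 0.423 and 0.725 in I/R (-1.03 ± 0.30, adjusted p = 0.0281). Zfp219, a partner of Sox9 in cartilage, was at 2.73, 4.35 and 2.40 FPKM in sham and 1.79, 1.73 and 1.47 in I/R (-0.85 ± 0.26, adjusted p = 0.0339). Of the 26 genes, 10 were called lower with every library left out in turn and under every other setting in which they were tested, namely Zfp17, Zfp54, Zfp142, Zfp266, Zfp318, Zfp426, Zfp467, Zfp566, Zfp846 and Zfp869 (Zfp54 and Zfp318 were under the minimum of 1 FPKM and so were not tested in that setting). Zfp54 and Zfp318 also passed the limit of 0.5 FPKM through sham alone. Zfp68 (-0.83 ± 0.29, adjusted p = 0.0512) and Zfp612 (-1.27 ± 0.54, adjusted p = 0.0952) were not called, and passed with the replicate number as a block (adjusted p = 0.0471 and 0.0112).

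Most of the next genes, called or not, had no role that can be given here. Zfp869 was at 3.46, 5.76 and 5.20 FPKM in sham and 1.43, 2.07 and 1.93 in I/R (-1.35 ± 0.26, adjusted p = 0.00617). Zfp875, listed in RefSeq as Zfp874b, was at 0.965, 1.77 and 1.23 FPKM in sham and 0.279, 0.390 and 0.661 in I/R (-1.41 ± 0.37, adjusted p = 0.0172). Library 1 was the lowest of its group for both genes. Zfp105 was at 2.45, 3.33 and 4.03 FPKM in sham and 1.23, 1.18 and 1.79 in I/R (-1.16 ± 0.27, adjusted p = 0.0108). Zfp775 was at 2.26, 2.42 and 1.51 FPKM in sham and 0.742, 0.768 and 1.19 in I/R (-1.12 ± 0.29, adjusted p = 0.0164), with sham 3 nearest the I/R libraries. Zfp317 was at 1.37, 1.61 and 2.01 FPKM in sham and 0.510, 0.834 and 0.819 in I/R (-1.11 ± 0.29, adjusted p = 0.0169). Zfp267 was at 1.27 FPKM in sham 1 and at up to 2.24 in the other sham libraries, and at 0.529, 0.944 and 0.936 in I/R (-1.10 ± 0.32, adjusted p = 0.025). In these 2 genes libraries 1 were again the lowest of their groups, as I/R 1 was of the I/R libraries for 18 of the 26 genes called lower and sham 1 of the sham libraries for 19. Zfp282, first described as a repressor of a viral promoter, was at 1.31, 1.89 and 1.44 FPKM in sham and 0.791, 0.937 and 0.683 in I/R (-0.86 ± 0.27, adjusted p = 0.033). Zfp646 was at 1.49, 1.44 and 1.14 FPKM in sham and 0.675, 0.736 and 0.904 in I/R, without overlap and without a call (-0.74 ± 0.26, adjusted p = 0.0548). Zfp513, among the 5 Zfp genes of highest mean, was at 4.60, 7.35 and 5.94 FPKM in sham and 4.68, 5.47 and 4.38 in I/R and overlapped between groups (-0.28 ± 0.24, adjusted p = 0.40).

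A run of 3 neighbouring genes on chromosome 8 was called lower. Zfp426, Zfp266 and Zfp846 follow each other in the RefSeq order of protein-coding genes with none between them. Zfp426 was at 2.58, 2.87 and 2.44 FPKM in sham and 0.752, 0.806 and 0.736 in I/R (-1.66 ± 0.22, adjusted p = 0.0026). Zfp266 was at 2.61, 5.04 and 3.60 FPKM in sham and 1.18, 1.69 and 1.22 in I/R (-1.36 ± 0.28, adjusted p = 0.00759). Zfp846 was at 1.80, 2.25 and 1.98 FPKM in sham and 0.966, 0.513 and 0.560 in I/R (-1.48 ± 0.29, adjusted p = 0.00628). The lowest sham library of each gene was above its highest I/R library. Zfp560, which lies on the same stretch with Zfp26 between it and Zfp426, was at 0.959, 1.16 and 0.898 FPKM in sham and 0.650, 0.845 and 1.16 in I/R and was not called (-0.19 ± 0.30, adjusted p = 0.649). The 150 bases before the RefSeq start of these 3 genes are shown because the genes adjoin and were all called lower, beside those of Zfp771, a gene called higher. Sequences are RefSeq promoter sequences on GRCr8, read 5′ to 3′ on the strand of the gene, and capitals mark the longest stretch that the first 3 share in the same orientation.
Zfp426: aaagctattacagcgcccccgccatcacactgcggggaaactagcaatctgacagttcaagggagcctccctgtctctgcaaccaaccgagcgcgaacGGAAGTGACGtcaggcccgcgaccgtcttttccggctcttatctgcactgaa
Zfp266: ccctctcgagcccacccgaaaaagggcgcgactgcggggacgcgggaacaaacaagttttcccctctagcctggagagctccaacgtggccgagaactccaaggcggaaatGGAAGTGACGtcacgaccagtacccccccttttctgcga
Zfp846: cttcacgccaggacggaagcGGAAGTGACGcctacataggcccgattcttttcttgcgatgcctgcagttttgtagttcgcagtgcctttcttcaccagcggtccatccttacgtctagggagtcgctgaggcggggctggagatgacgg
Zfp771: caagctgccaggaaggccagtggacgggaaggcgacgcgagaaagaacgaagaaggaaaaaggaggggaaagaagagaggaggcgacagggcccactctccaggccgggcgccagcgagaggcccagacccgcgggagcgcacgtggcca

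The stretches lie at chr8:27305058-27305207 (minus strand, Zfp426), chr8:27337540-27337689 (minus strand, Zfp266), chr8:27396161-27396310 (plus strand, Zfp846) and chr1:191294380-191294529 (plus strand, Zfp771). The shared 10 letters GGAAGTGACG begin 52, 39 and 130 bases before the start of Zfp426, Zfp266 and Zfp846. They were picked from these 3 sequences, so their presence there is no finding. On either strand of the 300 bases from 250 before to 50 after each start, the same letters occurred in 5 of 108 Zfp genes with a RefSeq promoter (4.63%). Those 5 include the 3 genes they were picked from, so this share cannot be compared with that of other promoters. Among the Zfp genes not called, 2 of 83 held them (2.41%), as did 1.66% of the promoters of genes tested and 0.626% of all 27457 promoters. The 2 further Zfp genes that hold them, Zfp655 (1.48, 2.17 and 1.97 FPKM in sham and 1.83, 1.83 and 1.53 in I/R) and Zfp830 (1.33, 0.977 and 1.41 in sham and 1.72, 1.59 and 0.997 in I/R), were not called, and their groups overlapped.

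A set of short motifs was also searched on both strands of the same windows. ACTACAA, the core of the site bound by Zfp143, was found in 10.2% of the 108 Zfp promoters, in 4.4% of those of genes tested and in 3.4% of all. It was in 3 of the 24 promoters of genes called lower and in 8 of the 83 of genes not called. The palindrome core TCTCGCGA was in 3.7% of Zfp promoters and 2.2% of those of genes tested, and the cAMP response element TGACGTCA, whose first 5 letters overlap the shared stretch in Zfp426 and Zfp266, in 2.8% and 3.1%. CCGGAAG, a site of Ets factors, was in 21.3% and 18.8%, ATGGCGGC, a Yy1 site, in 6.5% and 6.4%, and GCGCATGC, an Nrf1 site, in 5.6% and 5.4%. The GC box GGGCGG was rarer, in 46.3% of Zfp promoters against 64.0% of those of genes tested, and in 33.3% of those called lower against 49.4% of those not called. Median GC content was 57.2% in the promoters called lower, 58.7% in those not called and 61.3% in those of all genes tested.

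Genes called lower lay both in clusters and alone. RefSeq placed 127 of the Zfp genes, and 49 of these had a gene named Zfp, Znf, Zscan or Zkscan with a number as a direct neighbour. Zinc finger genes under other names were not counted as neighbours. Of the 49, 12 (24.5%) were called lower and 1 higher, with a median log2 fold change of -0.38. Of the 78 without such a neighbour, 13 (16.7%) were called lower and 1 higher, with a median of -0.27. Zfp54 and Zfp51 on chromosome 1 were the only other adjoining pair of Zfp genes called lower, with Zfp51 at 0.677, 0.827 and 0.911 FPKM in sham and 0.104, 0.341 and 0.340 in I/R (-1.40 ± 0.43, adjusted p = 0.0317). By chromosome, 6 of 10 Zfp genes on chromosome 8, 3 of 4 on chromosome 9, 4 of 10 on chromosome 4 and 4 of 30 on chromosome 1 were called lower. The counts were 1 of 11 on chromosome 10, 1 of 9 on chromosome 7 and 0 of 8 on chromosome 19. Over all chromosomes 19.8% of the Zfp genes and 7.36% of all genes tested were called lower. The share of all genes on each chromosome was not computed. No test was made between chromosomes or between clustered and single genes.

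Zfp771 and Zfp703 went the other way. Zfp771 was at 6.52, 3.56 and 3.95 FPKM in sham and 13.9, 9.29 and 11.3 in I/R, 2.46 times higher on average (log2 fold change 1.31 ± 0.28, adjusted p = 0.00857). Zfp703, a transcriptional cofactor studied in luminal breast cancer, was at 2.13, 1.25 and 1.77 FPKM in sham and 5.79, 3.58 and 3.67 in I/R, 2.53 times higher (1.29 ± 0.28, adjusted p = 0.00887). For both genes every I/R library was above every sham library, library 1 was the highest of each group, and the change was above 0 in every setting tried, though neither was called when values were rescaled over the genes not encoded in mitochondria (0.54 and 0.53, adjusted p = 0.121 and 0.174), and Zfp771 was not called after quantile normalization either (0.82, adjusted p = 0.066). Zfp428 was at 3.02, 0.791 and 0.904 FPKM in sham and 2.59, 2.93 and 3.51 in I/R, so sham 1 lay among the I/R libraries (1.13 ± 0.43, adjusted p = 0.0675, and 0.0453 with the replicate number as a block). Zfp330, a nucleolar protein, was at 5.43, 8.21 and 6.64 FPKM in sham and 12.2, 8.92 and 11.4 in I/R, with no overlap and no call (0.68 ± 0.24, adjusted p = 0.0554). Zfp777 (0.74, adjusted p = 0.06), Zfp3 (0.72, adjusted p = 0.14), Zfp64 (0.70, adjusted p = 0.14) and Zfp628 (0.68, adjusted p = 0.10) also had every I/R library above every sham library without a call, while the groups of Zfp609 (0.68, adjusted p = 0.17) overlapped.

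Genes listed as DNA-binding regulators of transcription lay on both sides of 0. The list also holds cofactors, among them Zfp703. Of 17 listed, 14 were among the Zfp genes, 8 of them below 0 and 6 above. Limma called 2 (14.3%) lower and 1 (7.14%), Zfp703, higher, where 7.36% of all genes tested were called lower and 25.5% higher. The list median was -0.15, and 0.04 in TPM, against 0.29 and 0.48 over all genes tested. Zfp467, a regulator of the choice between fat and bone cells, was at 2.28, 2.14 and 2.69 FPKM in sham and 0.584, 0.688 and 0.465 in I/R (-1.87 ± 0.26, adjusted p = 0.0026). Zfp263, a SCAN and KRAB repressor, was at 1.63, 2.68 and 2.85 FPKM in sham and 0.612, 1.13 and 1.07 in I/R (-1.26 ± 0.31, adjusted p = 0.0142). Neither gene's groups overlapped. Zfp384, a shuttling factor of the nuclear matrix, had I/R libraries at 1.66, 1.62 and 2.02 FPKM, all under the sham libraries at 2.60, 3.24 and 2.48, and was not called (-0.62 ± 0.22, adjusted p = 0.06).

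Several regulators with known work in muscle, fat or stem cells did not pass. Zfp260, which acts with Gata4 on cardiac genes, was at 1.41, 2.02 and 2.25 FPKM in sham and 1.40, 1.45 and 1.26 in I/R (-0.41 ± 0.25, adjusted p = 0.23). The I/R libraries lay around the lowest sham library, so the groups overlapped. Zfp143, the activator of small nuclear RNA genes, was at 1.51, 1.59 and 1.60 FPKM in sham and 1.81, 1.41 and 1.33 in I/R (-0.06 ± 0.23, adjusted p = 0.87). Zfp423, an early factor of the fat lineage, was at 0.80, 0.70 and 0.44 FPKM in sham and 1.58, 0.72 and 1.02 in I/R, with overlap (0.66 ± 0.36, adjusted p = 0.18). Zfp148 (-0.29), a factor of GC-rich promoters, Zfp335 (-0.24), a cofactor needed by neural progenitors, Zfp281 (0.09), a stem cell factor, Zfp521 (0.10), Zfp503 (0.23) and Zfp410 (0.31), the activator of Chd4, had adjusted p between 0.32 and 0.88. Of the genes listed for imprinting and retroelement silencing, 1 of 5, Zfp445, was expressed highly enough to be tested, and it was at 1.27, 2.92 and 1.91 FPKM in sham and 1.10, 1.68 and 1.69 in I/R (-0.37 ± 0.32, adjusted p = 0.40).

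Most Zfp genes that work on RNA, ribosomes, ubiquitin or the spindle were not called. Of 11 listed, 10 were among the Zfp genes, and limma called 1 lower and none higher (1 higher at an unadjusted p of 0.05, and 1 with voom). Over all genes tested, limma called 7.36% lower and 25.5% higher. In the list 8 genes lay above 0 with a median of 0.15, which became 0.35 in TPM, -0.09 when values were centred on the median of each library, -0.23 after quantile normalization and -0.60 when rescaled over the genes not encoded in mitochondria. The median of all genes tested was 0.29, 0.48, 0.042, -0.022 and -0.46 in the same order, above that of the list each time. As deposited, 9 of the 10 listed genes lay under the median of all genes tested. Zfp638, an RNA-binding protein of splicing and of retroviral silencing, was the called gene, at 2.21, 3.39 and 3.35 FPKM in sham and 1.31, 2.03 and 1.69 in I/R (-0.79 ± 0.26, adjusted p = 0.043). Zfp593, a factor of large ribosomal subunit assembly, was at 2.97, 1.61 and 1.47 FPKM in sham and 2.85, 3.83 and 3.82 in I/R, with sham 1 above 1 of the I/R libraries (0.82 ± 0.29, adjusted p = 0.0547). Zfp622, another factor of that subunit, was at 6.48, 9.13 and 4.94 FPKM in sham and 8.53, 7.79 and 6.35 in I/R, so the groups overlapped (0.17 ± 0.27, adjusted p = 0.65). The ubiquitin ligases Zfp91 (6.12, 8.21 and 7.19 FPKM in sham and 9.75, 8.71 and 7.26 in I/R, 0.25, adjusted p = 0.42) and Zfp598 (0.08, adjusted p = 0.80), the spindle protein Zfp207 (0.08, adjusted p = 0.88) and the RNA-binding Zfp106 (0.17, adjusted p = 0.67) overlapped between groups. Zfp346, which binds double-stranded RNA, had a value of -0.72 (adjusted p = 0.08), and Zfp326 (0.14) and Zfp830 (0.18), both linked to splicing, had adjusted p of 0.76 and 0.66.

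The machinery through which KRAB zinc finger proteins act was measured alongside. Of 28 listed corepressor and heterochromatin genes, 23 were tested, and limma called 4 lower and none higher, with a median of -0.40 (1 higher at an unadjusted p of 0.05, and 0 with voom, which called 5 lower). The 4 are 17.4% of the genes tested in the list, where 7.36% of all genes tested were called lower and 25.5% higher. The median over all genes tested was 0.29. Setdb1, the methyltransferase recruited by Trim28, was at 1.99, 2.82 and 1.85 FPKM in sham and 0.785, 0.797 and 1.06 in I/R (-1.23 ± 0.26, adjusted p = 0.008). Morc3, an ATPase of retroelement silencing, was at 3.06, 6.69 and 5.70 FPKM in sham and 1.20, 1.38 and 1.51 in I/R (-1.78 ± 0.30, adjusted p = 0.004). Tasor, a subunit of the HUSH silencing complex, was at 0.886, 1.87 and 1.82 FPKM in sham and 0.549, 0.651 and 0.642 in I/R (-1.12 ± 0.33, adjusted p = 0.027). Resf1, a partner of Setdb1, was at 3.50, 7.61 and 5.11 FPKM in sham and 1.66, 3.31 and 2.51 in I/R (-1.07 ± 0.33, adjusted p = 0.034). In these 4 genes no I/R library reached a sham library. Trim28 itself was at 9.23, 10.5 and 8.52 FPKM in sham and 16.1, 13.1 and 13.4 in I/R, where all I/R libraries were the higher ones and the test missed the threshold (0.58 ± 0.22, adjusted p = 0.063), and it was called higher in TPM (0.78, adjusted p = 0.0398), where the list had 3 genes lower and 1 higher, and its value turned to -0.08 after quantile normalization and -0.19 when rescaled over the genes not encoded in mitochondria. The heterochromatin proteins Cbx1 (0.52), Cbx3 (-0.08) and Cbx5 (0.44) and the deacetylases Hdac1 (0.13) and Hdac2 (0.34) were not called.

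Other zinc finger families were counted in the same way, beside the 7.36% of all genes tested that were called lower and the 25.5% called higher. Of 8 Zscan and Zkscan genes tested, which like many Zfp genes carry C2H2 fingers, limma called 2 lower and none higher (1 higher at an unadjusted p of 0.05, and 0 with voom) with a median of -0.38, namely Zscan26 (-2.16, adjusted p = 0.004) and Zscan12 (-1.18, adjusted p = 0.007). Of 24 Zbtb symbols, in which a BTB domain accompanies the fingers apart from Zbtb8os, which is no zinc finger gene, 2 (8.33%) were called lower and 4 (16.7%) higher with a median of 0.10. Of 10 Klf genes tested, limma called none lower (0 also at an unadjusted p of 0.05 and with voom) and 2 (20%) higher, Klf6 and Klf13, with a median of 0.48. The Klf median was -0.10 after quantile normalization and -0.29 when rescaled over the genes not encoded in mitochondria, and the Zbtb median was -0.15, -0.03 and -0.63 under median centring, quantile normalization and that rescaling. Of 12 genes named Znf, or Zfp with a letter after the number, limma called 1 lower and none higher (0 higher also at an unadjusted p of 0.05 and with voom), with a median of -0.13. Their median was 0.05 in TPM. The families were not tested against each other.

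**Figure D4:**
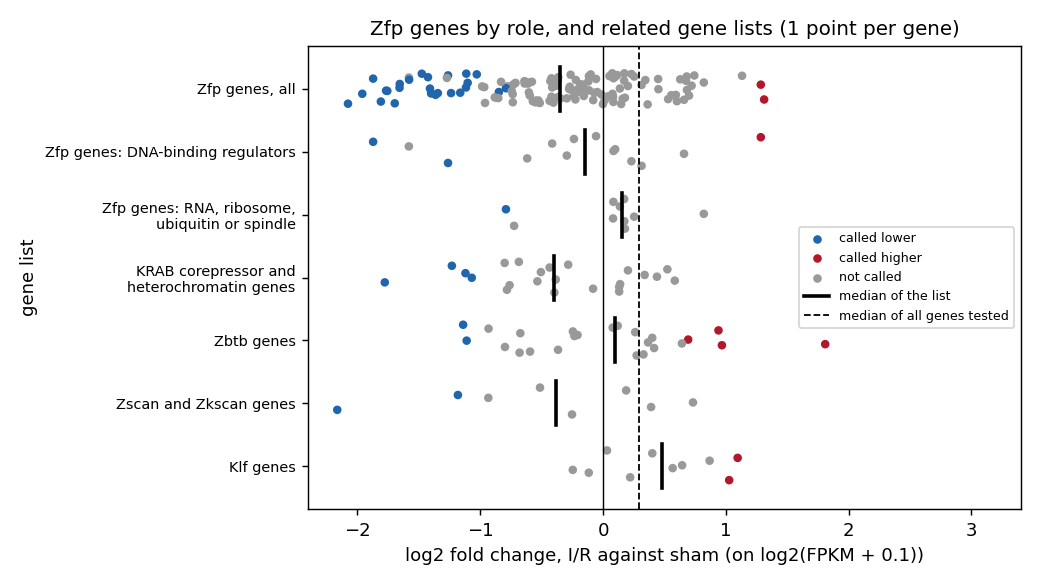
Log2 fold change in I/R against sham on log2(FPKM + 0.1), on the x axis, for the 131 Zfp genes, 2 of their role lists, and 4 related lists, with 1 point per gene, blue for called lower, red for called higher and grey for not called. Thick lines are the medians of the lists, from -0.40 in the corepressor list to 0.48 in the Klf genes, and the dashed line is the median of all genes tested. The medians of the RNA, ribosome, ubiquitin or spindle list, the Zbtb genes and the Klf genes turn negative under other scalings. That of the DNA-binding regulators turns to 0.04 in TPM.

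Values just inside and outside the limit of 0.5 FPKM were alike in size. Just inside were Zfp644 (mean 0.507 FPKM), Zfp654 (0.527) and Zfp128 (0.528), and just outside Zfp687 (0.499), Zfp697 (0.496) and Zfp608 (0.490). Of the 97 symbols under the limit, 9 were at 0 in all libraries, the sham mean was the larger in 72 and the I/R mean in 16, and the I/R libraries were all under the sham libraries in 32 and all above in 2. The genes tested, which lie at a higher level, had all I/R libraries under sham in 13.0% and above in 37.2%. For other genes at 0.5 to 1 FPKM the shares were 19.9% and 16.8%. The 97 symbols were not tested. Zfp36, which the rule leaves out, encodes a CCCH protein that promotes decay of inflammatory mRNAs and is unrelated to the C2H2 genes. It was at 11.4, 10.2 and 4.56 FPKM in sham and 112.9, 37.5 and 41.3 in I/R (2.77 ± 0.46, adjusted p = 0.00391).

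The median of the Zfp genes lay under that of all genes tested in each scaling, by an amount that varied, and the number called varied with it. With FPKM as deposited, the median of the Zfp genes lay 0.64 under that of all genes tested on the log2 scale. The difference was -0.64 in TPM, -0.64 with each library centred on its median, -0.41 after quantile normalization and -0.59 after rescaling over the genes not encoded in mitochondria. The counts of Zfp genes called lower and higher were 26 and 2 as deposited, 22 and 7 in TPM, 49 and 2 with median centring, 37 and 1 with quantile normalization and 70 and 0 with rescaling over the genes not encoded in mitochondria, where 0 were higher at an unadjusted p of 0.05 too. All 26 genes called as deposited were among those called lower under the last 3 of these, and 22 of them in TPM. The medians of all genes tested were 0.29, 0.48, 0.042, -0.022 and -0.46 in the same order, so the scalings disagree on whether an average gene rose or fell.

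**Figure D5:**
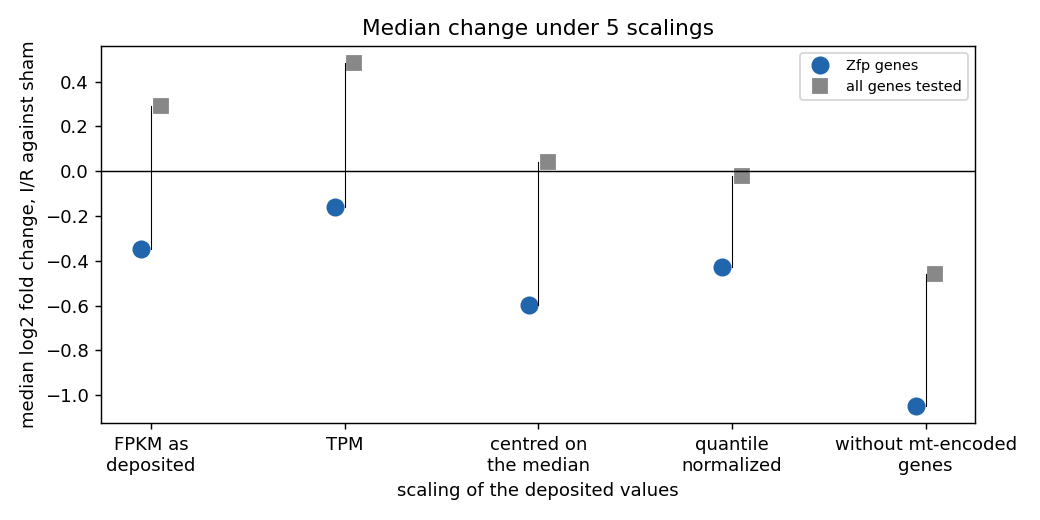
Median log2 fold change in I/R against sham, on the y axis, of the 131 Zfp genes (blue circles) and of all genes tested (grey squares) under 5 scalings of the deposited values on the x axis. The Zfp median is below that of all genes in each, by 0.41 to 0.64, whereas the position of both relative to 0 moves.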

How the data were processed

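The authors deposited 1 table of FPKM values for the 6 libraries, which were made with a stranded total RNA kit. The submitters' processing notes name STAR and HTSeq; versions, genome build and annotation are not given in the sources used here. Values of rows with a common symbol were added up, which turned 30452 rows (7092 without a symbol) into 28293 genes. The 10942 genes with a mean of at least 0.5 FPKM were compared on log2(FPKM + 0.1) with limma 3.58.1 in R 4.3.3 (lmFit, eBayes with trend), Benjamini-Hochberg adjustment over all of them and a threshold of 0.05. Fold changes on this scale understate the change of low genes. An exact permutation test of 3 libraries against 3 cannot give a p under 0.1. Differences are I/R minus sham.

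The members and gene lists were chosen with earlier results of these data known, so no list was tested as a set. Genes named singly are the 10 lowest and 10 highest fold changes, the 5 highest means, the role lists, the corepressor genes called, and those next to the limit of 0.5 FPKM; all other called members, and further genes, were named after their values were seen.

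Whole fragments, within 0.001 of a fragment, were recovered from the FPKM of 10496 of 10828 genes of 1 row (96.9%), and voom in limma on these fragments was added after seeing the data. The limma step was tested on simulated data.

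Replicate numbers come from the sample titles. Deviations from the group means correlated at 0.203, 0.117 and 0.118 between libraries of the same number (and at 0.120 between sham 3 and I/R 2), so a second fit took the number as a block. The alternatives tried were pseudocounts of 1 and 0.01, a minimum of 1 FPKM or none, rescaling to TPM or over genes not encoded in mitochondria, median centring, quantile normalization, limma without trend, the highest row of each symbol and leaving out each library. Names, gene order and promoters come from RefSeq (GRCr8), by symbol; whether the files use that build is not stated.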

Additional observations from a re-analysis of the deposited data

How the results depend on the processing

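The direction of the Zfp genes as a whole did not turn under any alternative tried, but the counts moved. With the replicate number as a block, 29 Zfp genes were lower and 3 higher, and beyond the 4 genes given in the text the block changed no call. Leaving out 1 library gave 12 to 30 Zfp genes lower, 2 to 4 higher and a median of -0.40 to -0.21, with the lowest counts without sham 2 (12) and sham 3 (14); over all genes it gave 309 to 881 lower and 1528 to 2557 higher. Zfp genes called lower were 49 with median centring and 70 with rescaling over the genes not encoded in mitochondria. Those called higher were 4 with a minimum of 1 FPKM, 7 in TPM, 1 with quantile normalization, 0 with the mitochondrial rescaling, 4 without trend and 7 with voom on recovered fragments. The median was -0.19 with a pseudocount of 1, -0.16 in TPM, -0.60 with median centring and -1.05 with the mitochondrial rescaling. The median of all genes was 0.076 without a filter, 0.48 in TPM, 0.042 with median centring, -0.022 with quantile normalization and -0.46 with the mitochondrial rescaling. Over all genes tested, 504 were lower in TPM, 1554 with median centring, 1559 with quantile normalization and 2857 with the mitochondrial rescaling, and 1441 and 793 were higher under the last 2; 22.4% of all calls were lower as deposited against 12.7% in TPM, 43.5%, 52.0% and 78.3% under the others. The cause of these moves was not tested. For the 65 Zfp genes named and tested (45 by rule, and 20 after their values were seen), 1034 of 1148 repeats stayed on their side of the threshold, 57 lost the call, 57 gained one and none reversed a call, while 49 changed sign without a call in either. Zfp genes that were not called may still differ, since 3 libraries a group and as few as 4 fragments a gene limit what the test can show.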
